A study of Danio rerio with 8 samples.

Results

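The genes described here are 10 inhibitors and feedback regulators of Wnt signaling in zebrafish embryos treated with KT09, an extract made with ethanol from the dried stem of the plant Mahonia bealei. They were chosen by name, with earlier results of these data known: sfrp1a, sfrp1b, sfrp5, frzb, wif1, dkk1b, notum1a, nkd1, axin2 and znrf3. Each had 1 row among the 32520 genes of the authors' table, of which 26166 had a mean above 0. RNA was sequenced from 4 treated pools, kept in E3 medium with 100 µg/ml of the extract, and from 4 control pools, kept in E3 with 0.5% DMSO, the solvent of the extract stocks. The DMSO content of the treated wells is stated neither in the labels nor in the paper. Exposure started at 2 hpf with 25 embryos per well, and each pool held 75 whole embryos of the AB strain with their yolk, collected at 8 hpf according to the labels. The paper names 10 hpf elsewhere and reports delayed epiboly at this dose, so an effect on these genes and a difference in developmental stage cannot be told apart. In whole embryos, fewer cells that express a gene and less RNA per cell cannot be told apart either.

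Wnt proteins bind Frizzled receptors and Lrp5/6 co-receptors on the cell surface and thereby keep beta-catenin from being destroyed, so that it activates target genes in the nucleus. In the gastrula this signal promotes ventrolateral mesoderm and posterior neural fates, while inhibitors secreted from the anterior neural border and the prechordal plate protect the forebrain and the eye field from it. Other inhibitors are target genes of the pathway itself and form a negative feedback loop.

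The authors' table gives the mean of each group as reads divided by size factors, here called the normalised read count. It lists no value per library, but each group mean is a sum of whole reads times 4 fixed steps, 1 for each library, and is printed with 15 digits. This allowed the reads of each library to be read back: each of the 22094 genes with a treated mean above 0 and under 1000, and each of the 21922 genes with such a control mean, was met by exactly 1 set of 4 whole numbers. The libraries of a group are called A to D by depth, and the letters are not the replicate numbers of the labels. The read-back libraries held 16.7 to 19.5 M reads in the treated and 13.3 to 18.4 M reads in the control group. Of the members, sfrp1a and axin2 in both groups and frzb in the control group were met by several sets, and the set with the least spread was taken. For sfrp1a this gave a coefficient of variation of 0.136 in the treated and 0.066 in the control libraries, and the next best sets had 0.467 and 0.247. The spread of these 3 genes, and hence their tests, rests on that choice, while their group means do not. The choice can make their spread too small but not too large, so their p-values may be too low. This limit also reaches other genes with a group mean of 1000 or more, including those named below. Exactly 1 set met 236 of 1928 genes with a treated mean of 1000 to under 3000. For such a control mean it was 681 of 1939 genes, and from 3000 up it was none in either group. The shares called over all genes include genes of this kind.

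In the labels, replicate 4 of either group has a library name of the pattern used for the opposite group. Titles and treatment fields were followed for the groups of the samples, but the group means are the authors' own. Which group the authors placed each replicate 4 in is not known here. The first principal component over 12535 tested genes with both group means under 1000, taken without regard to the groups, held 52.0% of the variance. On it the treated libraries A to D lay at 0.17, 0.25, 0.49 and 0.43, and the control libraries A to D at -0.39, -0.42, -0.31 and -0.23. Treated library A and control library D were the nearest to the opposite group. Since the letters carry no replicate number, the libraries of replicate 4 cannot be picked out.

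Of the 10 members, 9 had a mean of 10 or more and were tested with limma on log2(normalised read count + 1) in one fit over 15132 genes, with Benjamini-Hochberg adjustment over all of them. At an adjusted p under 0.05, 7 members were lower in treated embryos: sfrp1a, sfrp5, frzb, dkk1b, nkd1, axin2 and znrf3. None was higher, while notum1a and wif1 did not pass. Over all genes tested, 19.0% were called lower and 17.8% higher. The median log2 difference was -0.60 for the 9 members and 0.00 for all genes tested. The study itself placed sfrp1a, sfrp5 and dkk1b in a list of Wnt genes drawn up on these samples, so the direction of these genes is not independent evidence. The other members were also chosen with earlier results of these data known, so the count of 7 is not independent evidence either. The paper says that experiments were repeated on eggs of different parents, but neither it nor the labels say which pools shared a clutch.

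**Figure D1:**
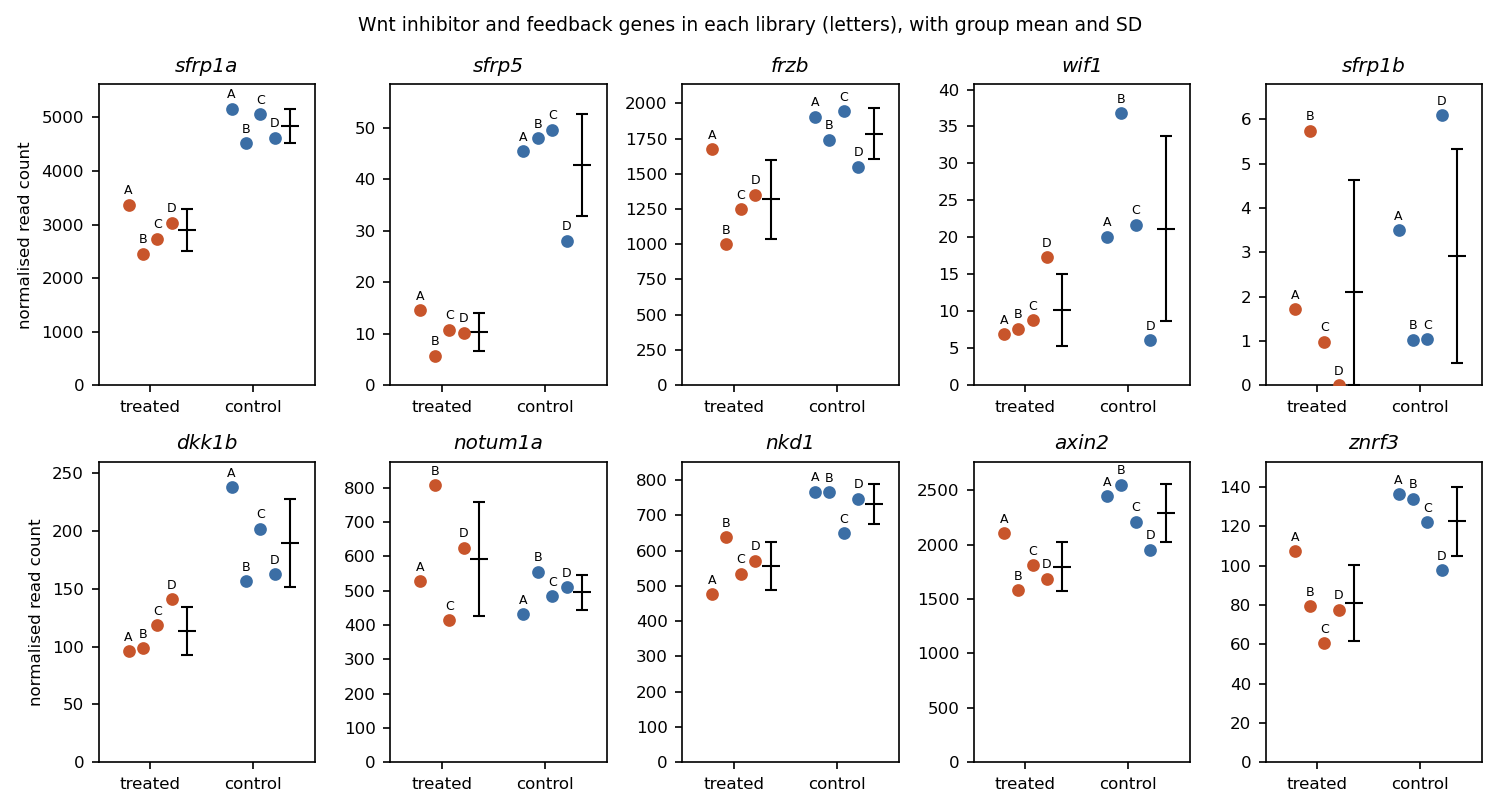
Normalised read count (vertical axes, each from 0) of the 10 members in the treated (left, orange) and control (right, blue) libraries, with letters for libraries and the group mean ± SD as black bars (n = 4). For sfrp1a, sfrp5, dkk1b and nkd1 each treated library lies below each control library, while sfrp1b is near 0 in both groups.

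The secreted Frizzled-related proteins carry a Wnt-binding domain like that of the Frizzled receptors and hold Wnt proteins in the extracellular space. The sfrp1a gene (ENSDARG00000035521) had 3372, 2457, 2733 and 3037 normalised reads in treated libraries A to D, against 5162, 4519.7, 5058 and 4621 in control libraries A to D. In the sets of reads with the least spread, the highest treated library thus lay well below the lowest control library. Its mean was 2899.5 ± 394 in treated and 4840.1 ± 317 in control embryos (SD, n = 4 each), so that 59.9% of the control level was left. On the log2 scale the difference was -0.75 (standard error 0.09, limma adjusted p = 0.000414).

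For sfrp5 (ENSDARG00000039041), another gene of this family, the treated libraries had 14.6, 5.74, 10.8 and 10.2 normalised reads, against 45.4, 48.0, 49.7 and 28.1 in the control libraries. Each treated library lay below each control library, and control library D stood lowest among the controls. The mean was 10.3 ± 3.63 in treated and 42.8 ± 9.98 in control embryos (SD, n = 4 each), 24.1% of the control level, from 44 reads in treated and 170 reads in control libraries. The log2 difference was -1.98 (95% interval -2.70 to -1.26, limma adjusted p = 0.0015), the most negative of the members.

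The frzb gene (ENSDARG00000018383) encodes a further secreted Frizzled-related protein, known in Xenopus as a Wnt antagonist of the Spemann organizer. It had 1673, 999, 1247 and 1353 normalised reads in the treated libraries, against 1906, 1741, 1942 and 1549 in the control libraries. The groups overlapped, since treated library A exceeded control library D, and the other treated libraries lay below all controls. The mean was 1318 ± 279 in treated and 1785 ± 179.7 in control embryos (SD, n = 4 each). The log2 difference was -0.46 (standard error 0.14, limma adjusted p = 0.0272). The call was lost without treated library C or D or without control library A, B or C, with an adjusted p between 0.0518 and 0.0734, and it held without treated library A, treated library B or control library D.

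The remaining secreted binders were scarce. The wif1 gene (ENSDARG00000005541) encodes Wnt inhibitory factor, which binds Wnt proteins through a WIF domain. Its treated libraries had 6.87, 7.66, 8.81 and 17.3 normalised reads, against 20.1, 36.8, 21.7 and 6.10 in the control libraries. Control library D, with 5 reads, lay below all treated libraries, while control libraries A to C lay above them. The log2 difference of -0.85 did not pass (95% interval -1.98 to 0.29, limma adjusted p = 0.218), and without control library D it was -1.32 and passed (adjusted p = 0.0292).

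The sfrp1b gene (ENSDARG00000057678), the paralog of sfrp1a, was counted 2, 6, 1 and 0 times in the treated libraries and 4, 1, 1 and 5 times in the control libraries. With 9 reads in the treated and 11 reads in the control group, its mean of 2.51 over all libraries was under the minimum of 10 and it was not tested. A count of 0, as in treated library D, allows up to 3 reads by counting error alone. How the counting treated reads that fit both sfrp1 genes is not given in the sources used here.

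The dkk1b gene (ENSDARG00000045219) encodes a Dickkopf protein, which binds the co-receptor Lrp6 rather than Wnt and is known in zebrafish for promoting head development. Its treated libraries had 96.2, 98.6, 118 and 141 normalised reads, against 238, 156, 202 and 162 in the control libraries. Each treated library lay below each control library, with treated library D and control library B nearest to each other. The mean was 113 ± 20.8 in treated and 189.5 ± 37.9 in control embryos (SD, n = 4 each), 59.9% of the control level. This gave a log2 difference of -0.73 (standard error 0.18, limma adjusted p = 0.0102).

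The notum1a gene (ENSDARG00000031126) encodes a secreted carboxylesterase that removes the lipid from Wnt proteins and is itself a target of the pathway. It was the only member with a higher mean in treated embryos. Its treated libraries had 527, 807, 415 and 625 normalised reads, against 432, 556, 484 and 509.9 in the control libraries. The treated libraries spread on both sides of the controls: library C was the lowest of all 8 and library B the highest. The coefficient of variation was 28.0% in the treated and 10.4% in the control libraries. The log2 difference of 0.22 did not pass (95% interval -0.17 to 0.62, limma adjusted p = 0.35). This interval includes a small fall and no change as well as a rise.

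Inside the cell, nkd1 and axin2 are feedback genes that Wnt signaling switches on. The nkd1 gene (ENSDARG00000020053) encodes Naked cuticle, which binds Dishevelled. It had 477, 638, 534 and 571 normalised reads in the treated libraries, against 767, 765, 649.8 and 747 in the control libraries. Each treated library lay below each control library, but treated library B came close to control library C. The mean was 555 ± 67.8 in treated and 732 ± 55.6 in control embryos (SD, n = 4 each). The fall in nkd1 had a log2 difference of -0.40 (standard error 0.10, limma adjusted p = 0.0125).

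The axin2 gene (ENSDARG00000100149) encodes a scaffold of the complex that marks beta-catenin for destruction, and its transcript is widely used as a readout of Wnt activity. It had 2107, 1583, 1813 and 1686 normalised reads in the treated libraries, against 2444, 2551, 2210.2 and 1954 in the control libraries. As for frzb, treated library A exceeded control library D and the other treated libraries lay below all controls. The mean was 1797 ± 227 in treated and 2289.8 ± 265 in control embryos (SD, n = 4 each), 78.5% of the control level. The log2 difference was -0.35 (standard error 0.11, limma adjusted p = 0.0248). The call was lost without treated library B or D or without control library A or B, with an adjusted p between 0.0575 and 0.0722.

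The znrf3 gene (ENSDARG00000062573) encodes a membrane ubiquitin ligase that removes Frizzled receptors from the surface and is held in check by R-spondins. It had 107, 79.4, 60.7 and 77.5 normalised reads in the treated libraries, against 136, 134, 122 and 97.6 in the control libraries. The groups again overlapped through treated library A and control library D. The mean was 81.2 ± 19.3 in treated and 122 ± 17.7 in control embryos (SD, n = 4 each). For znrf3 the log2 difference was -0.60 (standard error 0.19, limma adjusted p = 0.0334). The call was lost without treated library B, C or D or without control library A, B or C, with an adjusted p between 0.0546 and 0.09.

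**Figure D2:**
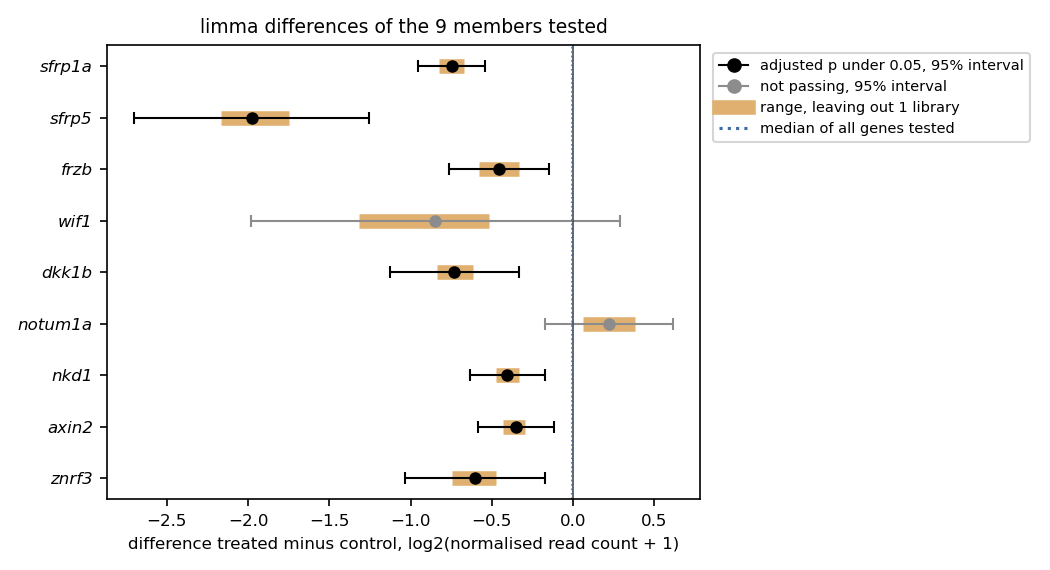
Difference of treated minus control in log2(normalised read count + 1) for the 9 members tested, with 95% intervals from limma (black, adjusted p under 0.05; grey, not passing) and, as broad bars, the range over the 8 fits that each leave out 1 library. The intervals of wif1 and notum1a include 0, and sfrp5 has the most negative difference at -1.98.

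The libraries varied together to some degree. Among the 7 members that passed the test, the median level relative to the control mean was 69.7% in treated library A, 56.0% in B, 62.5% in C and 73.7% in D. In the control libraries it was 107%, 104% and 104% in A to C and 85.6% in D. Treated library A was the highest treated library for 5 of the 10 members, and control library D the lowest control library for 5 of them. Against this, treated library A was the lowest treated library for dkk1b, nkd1 and wif1, and control library D the highest control library for sfrp1b. These libraries also lay nearest to the opposite group on the first principal component. With both left out, all 7 members kept their call. Both libraries were picked by where they lay in these same data, so that fit is no independent check. In each of the 8 fits that left out 1 library, sfrp1a, sfrp5, dkk1b and nkd1 kept their call, with a highest adjusted p of 0.0391 for nkd1. In some of these fits frzb, axin2 and znrf3 lost it.

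**Figure D3:**
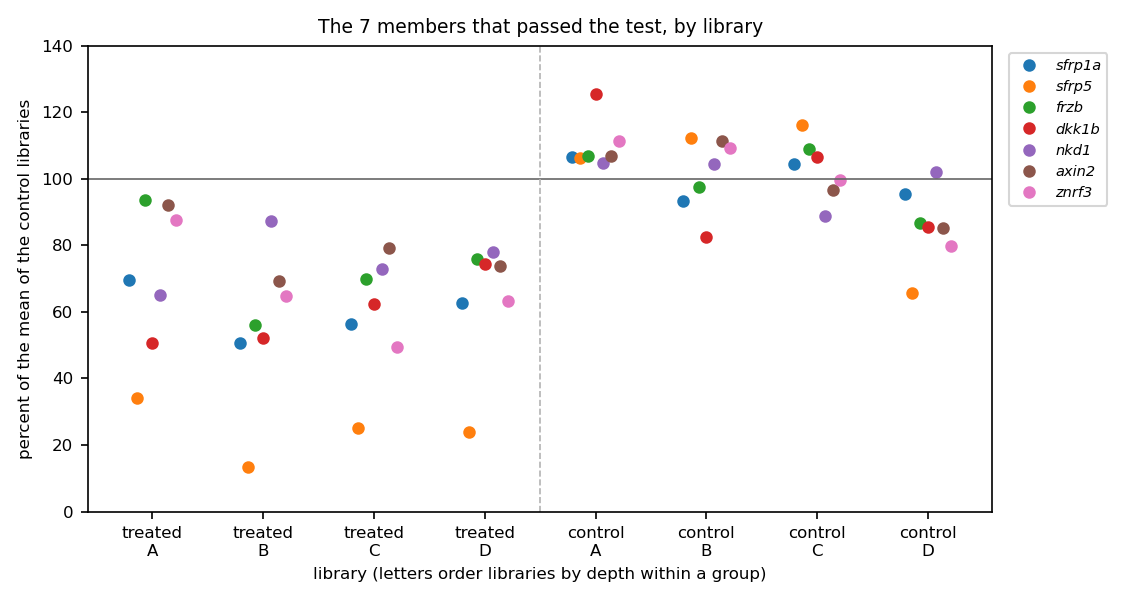
Level of the 7 members that passed the test, in percent of the mean of the control libraries (vertical axis, from 0), for treated libraries A to D on the left and control libraries A to D on the right. The points of sfrp5 lie lowest in each treated library, between 13.4% and 34.1%, and control library D has the lowest median of the controls at 85.6%.

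The 4 members whose libraries did not overlap were sfrp1a, sfrp5, dkk1b and nkd1, all lower, and 0 members were higher in every treated library. For sfrp1a this rests on the sets of reads with the least spread. Of all genes tested, 18.5% lay lower and 17.0% higher in each treated library than in each control library. By the ratio of the group means alone, 5 of the 9 members with a mean of 10 or more were lower by over 1.5-fold and 0 were higher, namely sfrp1a, sfrp5, dkk1b, znrf3 and wif1. Among all 15888 genes at this level, 15.1% were lower and 13.8% higher by that measure. The other 3 members that passed the test had ratios within that threshold: frzb had 0.738, nkd1 0.758 and axin2 0.785 of the control mean.

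Further antagonists of the pathway moved in both directions. Of 12 other antagonist genes tested, 4 were lower and 2 higher, against 19.0% and 17.8% of all genes tested. The median log2 difference of the 12 was 0.10. Among the genes lowered was draxin, which encodes a secreted guidance protein that antagonizes Wnt signaling. It had 30.9, 3.83, 11.7 and 9.18 normalised reads in the treated libraries, against 107, 68.5, 72.4 and 31.7 in the control libraries, a log2 difference of -2.45 (standard error 0.55, limma adjusted p = 0.00657). Treated library A and control library D were again nearest to each other. The shisa2a gene, whose family retains Frizzled receptors in the endoplasmic reticulum in Xenopus, fell with a log2 difference of -0.48 (standard error 0.07, limma adjusted p = 0.000778). The dact1 and dact2 genes, which encode partners of Dishevelled, had log2 differences of -0.47 and -0.38 (limma adjusted p = 0.00768 and 0.0221).

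Higher in treated embryos were dact3a, of the same family, with a log2 difference of 0.74 (limma adjusted p = 0.0159), and sostdc1a, which encodes a secreted antagonist of both BMP and Wnt, with 1.33 (limma adjusted p = 0.00778). Several relatives of members did not pass: notum1b had a log2 difference of 0.69 (95% interval -0.05 to 1.43) and axin1 of 0.15 (0.02 to 0.27), with adjusted p-values of 0.13 and 0.064. The sfrp2l gene, another gene of the sfrp family, did not pass either, at -1.08 (95% interval -2.29 to 0.13, adjusted p = 0.146). Nor did nkd3 at 0.05 and the Dickkopf gene dkk3b at 0.77 (limma adjusted p = 0.938 and 0.128).

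Of 6 Wnt ligand genes tested, 3 were lower and 1 was higher, against 19.0% and 17.8% of all genes tested. The median log2 difference of the 6 was -0.44. The ligands lowered were wnt5b at -0.45, wnt8a, which patterns the margin and the posterior neural plate, at -0.59, and wnt8b at -5.51. The treated libraries had only 5.15, 1.91, 4.89 and 0 normalised reads of wnt8b, so the size of its difference is uncertain. The paper describes wnt5b as unaffected, and it required a 1.5-fold change for its differentially expressed genes. Here wnt5b had 0.734 of the control mean, within that threshold (limma adjusted p = 0.00175). The ligand of convergence and extension wnt11f2 rose by 0.57 (limma adjusted p = 0.000508), and wnt11, with a mean of 14.4, had a log2 difference of 1.07 that did not pass (limma adjusted p = 0.318). Among 20 receptors, co-receptors and R-spondins, 6 were lower and 4 higher, against 19.0% and 17.8% of all genes tested. The receptor genes fzd10, fzd2 and fzd3a fell, with log2 differences of -1.41, -1.08 and -0.93, as did ror1 at -1.06. In contrast, fzd4 rose by 0.83 and rspo3, an R-spondin, by 0.71. Of the co-receptor genes that dkk1b acts on, lrp6 rose by 0.38 (limma adjusted p = 0.00704) and lrp5 did not pass at -0.23.

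Of 18 genes of the intracellular machinery tested, 4 were lower and 2 higher, against 19.0% and 17.8% of all genes tested. The lowered genes included gsk3ba, a kinase of the destruction complex, at -0.58, and the nuclear effectors tcf7 and tcf7l2 at -0.57 and -0.95. The ctnnb2 gene, which encodes a beta-catenin, was too abundant for its reads to be read back. Its authors' mean was 17425 in treated and 10402 in control embryos, a ratio of 1.68 with no test. Of 8 target genes tested besides the members, 5 were lower and 1 was higher, against 19.0% and 17.8% of all genes tested. The median log2 difference of the 8 was -0.58. The targets lowered were gbx1 at -1.30, cdx1a at -1.10, irx1b at -0.94, sp5a at -0.63 and fgf8a at -0.53, and vox rose by 0.20. By the ratio of the group means, 9 of 18 target genes were lower and 3 higher by over 1.5-fold. The 3 higher were tbxta, tbx16 and vent, and among the lower were hoxb1b, tbx6 and irx7, all 6 without a test of their own since their reads could not be read back.

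**Figure D4:**
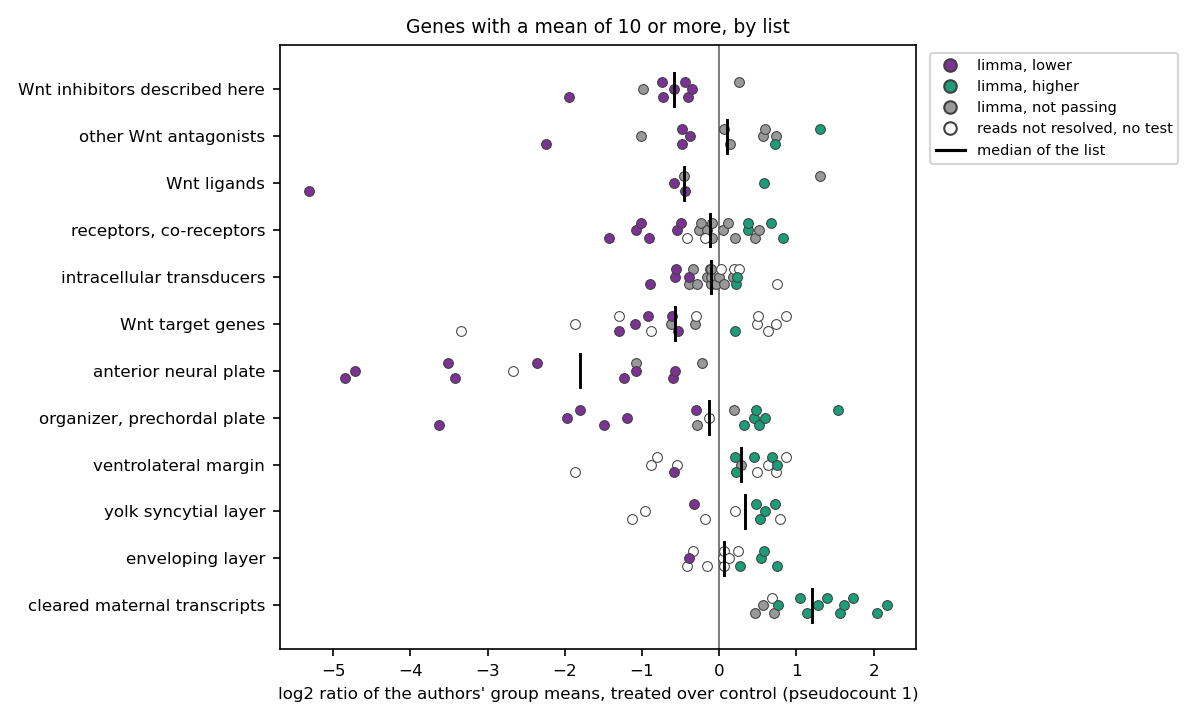
Log2 ratio of the authors' group means, treated over control, for genes with a mean of 10 or more in 12 lists (rows), colored by the limma call, with open circles for genes whose reads could not be read back and black bars for list medians. Genes may stand in more than 1 list. The 9 members in the top row have a median of -0.59, against 0.10 for the other Wnt antagonists.

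Genes that mark the regions and layers of the gastrula differed between the groups as well. For scale, 19.0% of all genes tested were lower and 17.8% higher. By the ratio of the group means, 15.1% of genes with a mean of 10 or more were lower and 13.8% higher by over 1.5-fold. Of 11 genes of the anterior neural plate tested, 9 were lower and 0 were higher, and their summed level was 3736 to 4692 normalised reads in treated and 6819 to 9038 in control libraries. Of 14 genes of the organizer and the prechordal plate, 6 were lower and 6 higher, with sums of 13360 to 14638 in treated and 14831 to 16672 in control libraries. The largest change in reads among them was that of otx1, with a mean of 1547 in treated and 3555 in control embryos. The foxa3 gene went the other way, with 4497 and 3140. The sums thus show no fall common to the list. They leave out chrd, which could not be read back and had 0.909 of the control mean. For the ventrolateral margin, 1 of 7 genes tested was lower and 5 were higher, but 8 further genes could not be read back. By the ratio of the group means, 4 of the 15 were lower and 5 higher by over 1.5-fold. The 7 genes tested had sums of 11419 to 13677 in treated and 10188 to 10436 in control libraries. Of 13 maternal transcripts that are cleared in early development, 0 were lower and 10 higher, with sums of 2368 to 3398 in treated and 866 to 1356 in control libraries. For the yolk syncytial and enveloping layers, 5 genes each were tested, of which 1 was lower and 4 were higher in either list. The 5 yolk syncytial genes tested summed to 10702 to 12249 in treated and 8008 to 9148 in control libraries. This sum leaves out 5 abundant genes that could not be read back and does not describe the whole list. Of the control mean, these had 0.457 (apoc1), 0.514 (apobb.1), 0.882 (apoa1b), 1.15 (ctsll) and 1.73 (mttp). By group means 2 of all 10 were lower and 3 higher by over 1.5-fold. The 5 enveloping layer genes summed to 10552 to 11952 in treated and 8401 to 10066 in control libraries. The 8 enveloping layer genes that could not be read back include the abundant keratins, such as krt4 at 1.04 and krt5 at 0.897 of the control mean. Over all 13 the median log2 ratio of the group means was 0.06, with 0 lower and 1 higher by over 1.5-fold. No marker found in the table stood at 0. The part of these differences in those of the Wnt inhibitors was not tested.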

How the data were processed

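Stranded mRNA libraries (TruSeq) were read by the authors in 1 direction over 100 bp on a NovaSeq. Reads were mapped and counted by the authors with nf-core rnaseq 3.0 (genome build GRCz11, Ensembl annotation 103). For their group comparison they used DESeq2, with a version not given in the sources used here. The deposited group means are signal values, which the authors made by dividing counts by size factors and averaging over the treated, the control or all pools. The table also holds the authors' log2 fold changes with standard errors, test statistics, p-values and adjusted p-values, none of which was used.

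Since each group mean is a sum of whole reads times 4 fixed steps, the reads per library were read back by lattice reduction. Where several sets of reads met the printed digits, the set with the least spread was taken if the next had at least 2 times its coefficient of variation and at least 0.2. Of 15888 genes with a mean of 10 or more, 756 could not be resolved this way, the lowest with a mean of 943.5, and were left out of the tests. Size factors recomputed from the reads by the median of ratios differed from the steps by at most 0.115%. If the authors rounded estimated counts, the whole numbers are the rounded ones. The read-back and its tests were added after the table had been seen, since only ratios of group means had been planned.

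Normalised values were compared with limma 3.58.1 in R 4.3.3 (trend, pseudocount 1, mean of 10 or more, Benjamini-Hochberg adjustment over 15132 genes). Tables were handled in Python 3.11.15 (numpy 2.4.6, pandas 2.3.3) and figures drawn with matplotlib 3.10.9. The read-back and the test were tried on simulated counts, each with a single dispersion for all genes, 0.02 for the read-back. This does not cover genes of higher dispersion, and the outcome is not reported here. The members and lists were chosen with earlier results of these data known. Named are all members and, from each other list, up to 4 genes with a mean of 100 or more and the largest absolute log2 ratio of the group means, and any gene past 1.5-fold against the direction of its list. Not every gene that this rule names is reported here. The other list genes (wnt8b, sostdc1a, notum1b, axin1, nkd3, dkk3b, lrp5, lrp6, cdx1a, irx1b, sp5a, fgf8a, vox, shisa3, hesx1, barhl2, otx1, foxa3, chrd, apoa1b, ctsll, anxa1b, krt4 and krt5) were named after their values were seen. Of 40 symbols of other antagonists, 11 were not found in the table, and 2 were members. Of the remaining 27 genes, 12 had a mean of 10 or more. Alternatives tried were pseudocounts, minimum means, fold thresholds, voom weights, library totals over the genes read back, centring and leaving out libraries. No genome of this build was used, so no sequence or coordinate is given. Transcript lengths were not used, so levels are not compared between genes.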

Additional observations from a re-analysis of the deposited data

How the results depend on the processing

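The precision rests on 4 libraries per group and, for scarce members, on their reads: wif1 was counted 42 times in treated and 85 times in control libraries. Intervals of scarce genes are wide, and no spread of genes too abundant to be read back is known. No paired analysis was possible because the read-back libraries carry no replicate numbers. For the same reason the planned replicate block and the omission of single replicates by number were not run, and neither were the planned count models. Leaving out 1 library at a time gave 4 to 8 members called lower (7 with all libraries), 4 without treated library D, control library A or control library B, and 0 called higher. It gave 2165 to 2911 genes called lower (2871 with all) and 2021 to 2727 called higher (2700 with all). These fits hold fewer samples. With a minimum mean of 100, sfrp5 was not tested. Otherwise pseudocounts, minimum means, voom weights and library totals over the genes read back left each of the 7 calls in place. The highest adjusted p among these was 0.0462, for znrf3 with no minimum mean. Without treated library A and control library D together, the 7 calls held, with 0.0464 for nkd1. These libraries were picked from the same data, so that fit is no independent check. The members lower by over 1.5-fold numbered 3 with a minimum mean of 100 and 1, sfrp5, with a 2-fold threshold (5 as reported). They numbered 4 with a pseudocount of 5 and 7 with a 1.3-fold threshold, and 5 under the other alternatives run. Over all genes 2405 were lower and 2191 higher by over 1.5-fold. With a minimum mean of 1 there were 3735 lower and 3852 higher, with 100 there were 984 lower and 927 higher, and with none 4286 lower and 4395 higher. With a 1.3-fold threshold there were 3721 lower and 3573 higher, and with a 2-fold threshold 1034 lower and 919 higher. No log2 difference or ratio of a member changed its sign under any alternative run.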

Other observations

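Among the antagonists too scarce to be tested, shisa3, of the same family as shisa2a, had 1.72 normalised reads in treated library A and 0 in treated libraries B to D, against 16.6, 17.4, 9.31 and 9.76 in control libraries A to D. With a mean of 6.85 it was under the minimum, and it is given here because of its values.

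Of 11 genes tested of the anterior neural plate, where the eyes and the forebrain arise, 9 fell in treated embryos, against 19.0% of all genes tested. Those that did not pass were hesx1 at -0.23 and barhl2 at -1.24 (limma adjusted p = 0.0748 and 0.148). For the 4 abundant genes with the largest ratios, the log2 difference was -5.01 for rx3 of the eye field, -4.98 for fezf2 of the forebrain, -3.68 for pax6b and -3.68 for zic1 (limma adjusted p = 0.000286, 0.000121, 0.00041 and 0.000275). Treated libraries B to D had only 5.74, 2.94 and 4.08 normalised reads of rx3, so the size of its difference is uncertain. In the list of the organizer and the prechordal plate, fsta, which encodes an antagonist of activin and BMP, had -3.74, six7 -1.93 and ctslb of the hatching gland -1.88, while lhx1a of the organizer had 1.52 and hhex 0.60. Of the maternal transcripts, wee2 had 2.19, ccna1 2.35, cth1 1.78 and h1m 1.61. In the enveloping layer, cldnf had 0.59, grhl3 0.54 and anxa1b -0.38, and the ratio of the authors' group means, without a test, was 0.747 for cyt1l. The sox32 gene of the yolk syncytial layer and endoderm had a log2 difference of 0.73. Without a test, the ratio of the authors' group means was 0.274 for tbx6, 0.543 for cdx4 and 0.574 for msgn1 of the margin, against 1.82 for tbxta, and 0.457 for apoc1, 0.514 for apobb.1 and 1.73 for mttp of the yolk.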
